A study of Mus musculus with 26 samples.

Results

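Bone morphogenetic protein (BMP) signalling was described here through 10 genes: the ligands Bmp2, Bmp4 and Bmp7, the receptor Bmpr1a, the secreted antagonists Grem1 and Sostdc1, the inhibitory Smad6, and the target genes Id1, Id2 and Id3. The genes were chosen by name, with earlier results of these data known. They were matched by Ensembl identifier to the rows of the deposited count table, which holds 47730 features. All 10 had a row, and all 10 were among the 16637 features with enough counts to be tested. No other feature carried the same symbols.

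BMP ligands are secreted dimers of the TGF-beta superfamily that bring together type I receptors, such as Bmpr1a, and type II receptors. The activated type I receptor phosphorylates Smad1 and Smad5, which enter the nucleus with Smad4 and switch on genes that include Id1, Id2, Id3 and the feedback inhibitor Smad6. Id proteins have no DNA-binding domain and hold E proteins, such as Tcf3, Tcf4 and Tcf12, away from DNA, while gremlin (Grem1) and Sostdc1 bind ligands outside the cell. In the mammary gland the pathway is known for roles in development, and in epithelial cells for effects on the balance between epithelial and mesenchymal states.

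Cells of E-A14, a Her2-expressing line of mouse mammary tumour origin, were implanted into mammary fat pads of FVB/N mice aged 6 to 8 weeks. From 2 weeks before implantation the mice received either antibodies against CD4 and CD8a or rat IgG2a and IgG2b, 100 µg of each antibody, 2 times a week. Tumours of the CD4- and CD8-depleted mice were taken at day 20 and those of the IgG controls at day 47, their growth end-points. Viable Her2-positive cells without CD45, CD90 or CD105 were sorted by EpCAM, an epithelial surface protein, with both fractions taken from every tumour. This gave 4 tumour groups of 6 libraries each: EpCAM-negative depleted, EpCAM-positive depleted, EpCAM-negative control and EpCAM-positive control. The fifth group was E-A14 in culture, with 2 libraries. All groups derive from 1 transplanted line, and T cell depletion and day of harvest coincide, so that their effects cannot be told apart. Nothing in the labels tells if both cultures were grown apart, and their spread may be technical.

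Library totals ranged from 17559520 to 38740143 counts, with lower totals in the depleted groups (17559520 to 25601999) than in the control tumour groups (26895429 to 38740143). The sorting gate was visible in the RNA. Epcam averaged 140.4 ± 83.4 CPM (counts per 1000000 counts of the library) in EpCAM-negative depleted and 2437 ± 241 CPM in EpCAM-positive depleted cells, against 1.63 ± 0.546 CPM in EpCAM-negative control and 1183 ± 239 CPM in EpCAM-positive control cells (SD, n = 6 each). EpCAM-negative cells thus carried 5.76% of the Epcam level of EpCAM-positive cells in depleted tumours (range 1.64% to 11.6% over libraries) and 0.138% in control tumours. A list of 10 epithelial genes summed to 3802 to 5422 CPM in EpCAM-negative depleted cells and to 990 to 1627 CPM in EpCAM-negative control cells, with none at 0. Ptprc, which encodes the CD45 that the gate excluded, averaged 4.84 ± 2.49 CPM in EpCAM-negative depleted and 4.43 ± 3.06 CPM in EpCAM-positive depleted cells, against 0.0567 ± 0.0941 CPM in EpCAM-negative control and 0.764 ± 0.696 CPM in EpCAM-positive control cells and no count in culture. Ptprc was thus found in the sorted tumour cells, and every depleted library was above every control library of its fraction (log2 changes of 6.30 ± 0.90 and 2.52 ± 0.70, adjusted p = 2.59e-06 and 0.00526, edgeR). In such bulk samples, fewer cells of a type and less RNA per cell cannot be told apart.

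**Figure D1:**
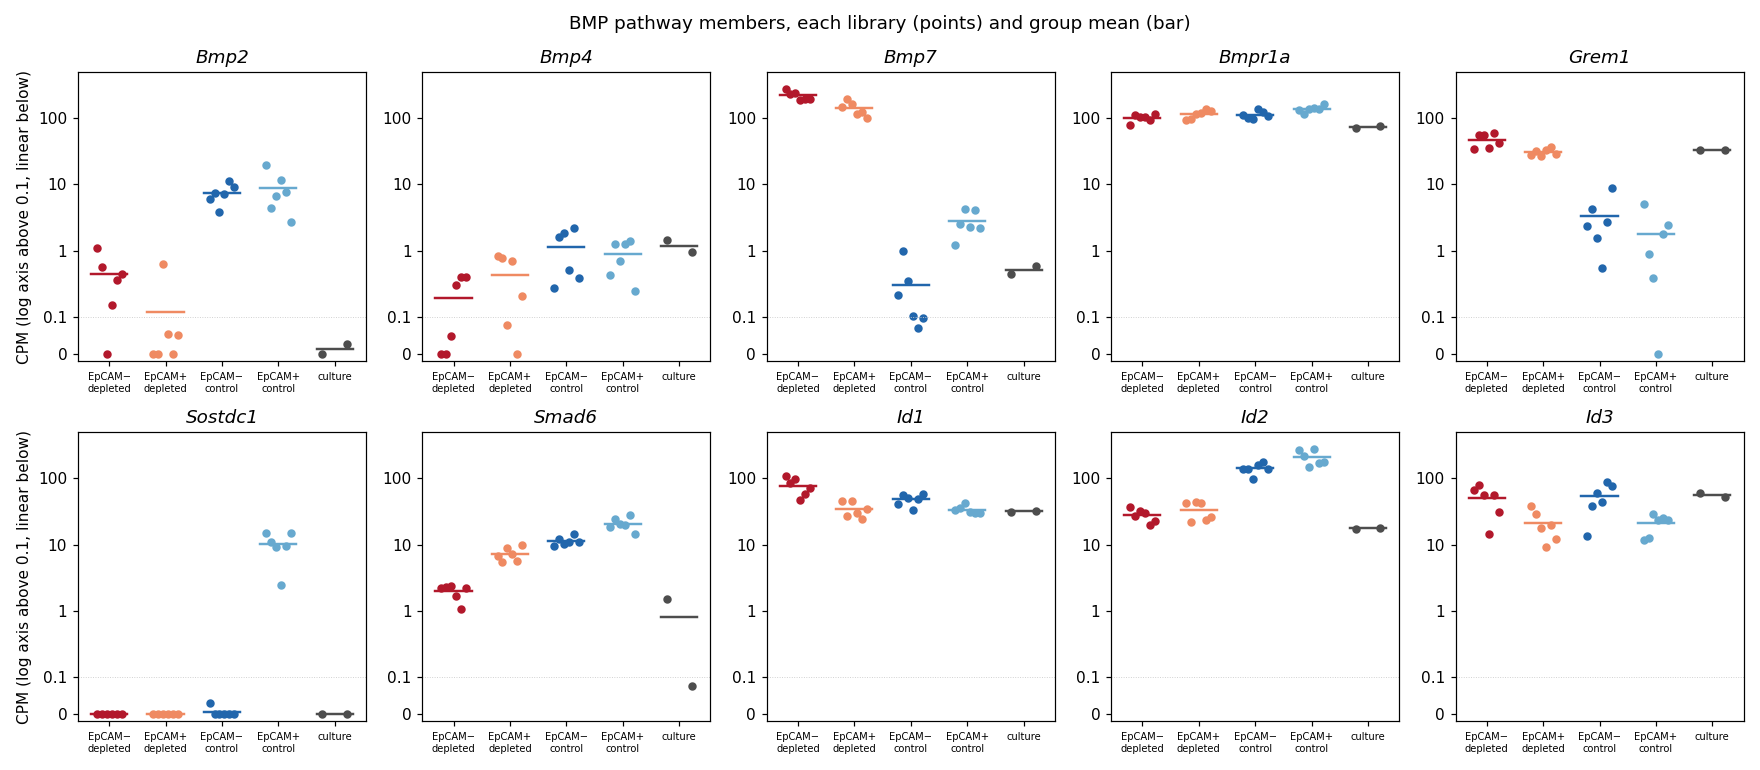
CPM of the 10 members in each library (points) with the group mean (bar), in 5 groups. The axis is logarithmic above 0.1 CPM and linear below, so that libraries at 0 can be drawn. Bmp7 and Grem1 sit higher in both depleted groups than in both control tumour groups, Bmp2, Smad6 and Id2 sit lower, and Sostdc1 is above 0.1 CPM in EpCAM-positive control cells alone.

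The ligands showed the widest range. Bmp7, a ligand first known from bone and kidney, had a lowest, median and highest value of 189, 213 and 278 CPM in EpCAM-negative depleted cells and of 101, 136 and 196 CPM in EpCAM-positive depleted cells. The same values were 0.0696, 0.159 and 0.974 CPM in EpCAM-negative control cells and 1.23, 2.39 and 4.30 CPM in EpCAM-positive control cells. In culture Bmp7 had 0.449 and 0.589 CPM. Every depleted library was therefore above every control tumour library and both cultures, with no overlap, and the culture values lay inside the range of EpCAM-negative control cells.

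Bmp2, a ligand best known for inducing bone, had a lowest, median and highest value of 0, 0.404 and 1.11 CPM in EpCAM-negative depleted cells and of 0, 0.0259 and 0.620 CPM in EpCAM-positive depleted cells. It had 3.90, 7.40 and 11.2 CPM in EpCAM-negative control cells and 2.76, 7.22 and 19.6 CPM in EpCAM-positive control cells. The culture libraries held 0 and 1 count of Bmp2. The control tumour libraries were all above the depleted ones and the cultures, and the EpCAM fractions overlapped within each treatment.

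Bmp4, the ligand closest to Bmp2 in sequence, was low in all groups. Its highest value was 0.401 CPM in EpCAM-negative depleted cells, 0.842 CPM in EpCAM-positive depleted cells, 2.19 CPM in EpCAM-negative control cells and 1.42 CPM in EpCAM-positive control cells. The cultures had 1.44 and 0.947 CPM. All neighbouring groups in the order of mean levels overlapped for Bmp4.

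Per kilobase of exon, which allows levels of different genes to be set side by side, the leading ligand of the 3 differed between groups. Bmp7 averaged 55.1 ± 8.96 CPM per kb in EpCAM-negative depleted cells, beside 0.124 ± 0.108 for Bmp2 and 0.0856 ± 0.0875 for Bmp4 (SD, n = 6). In EpCAM-positive depleted cells Bmp7 was at 35.1 ± 8.66 CPM per kb, with Bmp2 at 0.0340 ± 0.0692 and Bmp4 at 0.193 ± 0.169. Bmp2 led in both control fractions, at 2.12 ± 0.712 CPM per kb in the EpCAM-negative and 2.47 ± 1.71 in the EpCAM-positive one, where Bmp7 stood at 0.0752 ± 0.0861 and 0.692 ± 0.302 CPM per kb. In culture Bmp4 had the highest level of the 3 at 0.532 ± 0.156 CPM per kb (SD, n = 2), above 0.129 ± 0.0246 for Bmp7. Gdf6, a BMP-family ligand of the pathway list that was chosen for the plot of ligand levels after its values were seen, reached 3.04 ± 1.91 CPM per kb in EpCAM-negative control cells.

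**Figure D2:**
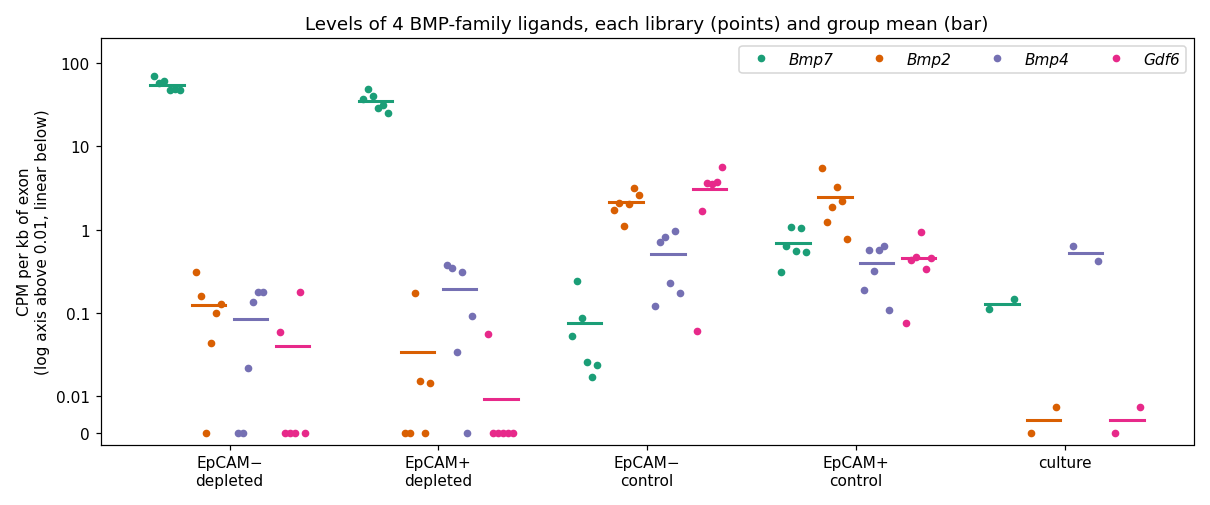
CPM per kb of exon of Bmp7, Bmp2, Bmp4 and Gdf6 in each library (points) with group means (bars), on an axis that is logarithmic above 0.01 and linear below. Bmp7 averages 55.1 and 35.1 CPM per kb in the depleted groups, and Bmp2 and Gdf6 sit above Bmp7 in EpCAM-negative control cells.

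Bmpr1a, a type I receptor for Bmp2 and Bmp4, varied least. It ranged from 78.0 to 115 CPM in EpCAM-negative depleted, 95 to 136 in EpCAM-positive depleted, 98.4 to 136 in EpCAM-negative control and 115 to 164 in EpCAM-positive control cells. The cultures, at 71.3 and 75.6 CPM, lay below every tumour library, and the 4 tumour groups overlapped their neighbours in the order of means.

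The antagonists followed opposite patterns. Gremlin (Grem1) had a lowest, median and highest value of 34.6, 48.9 and 59.0 CPM in EpCAM-negative depleted cells and of 27.3, 30.1 and 36.3 CPM in EpCAM-positive depleted cells. It had 0.552, 2.54 and 8.71 CPM in EpCAM-negative control cells and 0, 1.34 and 5.09 CPM in EpCAM-positive control cells. Both cultures held 33.6 and 33.3 CPM, inside the range of EpCAM-positive depleted cells and above all control tumour libraries. Sostdc1, a secreted inhibitor of BMP and Wnt signalling, was at 0 counts in all 12 depleted libraries and both cultures, and 1 count was found in EpCAM-negative control library 1 and none in the others of that group. In EpCAM-positive control cells the 6 libraries had 15.2, 10.9, 9.37, 2.44, 9.49 and 14.9 CPM, or 2033 counts in all. A count of 0 allows up to 3 counts in a library, and this limit covers counting error only.

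Smad6, which competes with the receptor-activated Smads and is itself induced by BMP, had a lowest, median and highest value of 1.07, 2.23 and 2.37 CPM in EpCAM-negative depleted cells and of 5.51, 7.01 and 9.76 CPM in EpCAM-positive depleted cells. It had 9.45, 10.9 and 14.5 CPM in EpCAM-negative control cells and 14.6, 20.2 and 27.7 CPM in EpCAM-positive control cells. The cultures had 1.54 and 0.0768 CPM, from 48 and 3 counts. EpCAM-negative cells lay below EpCAM-positive cells in both treatments without overlap, and the depleted and control groups of a fraction did not overlap either.

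Of the Id genes, whose products block basic helix-loop-helix factors, Id1 and Id2 were highest in different groups. Id1 had a lowest, median and highest value of 46.8, 78.1 and 108 CPM in EpCAM-negative depleted cells and of 24.9, 32.2 and 46.4 CPM in EpCAM-positive depleted cells. It had 33.6, 50.2 and 59.3 CPM in EpCAM-negative control cells, 29.8, 32.3 and 42.3 CPM in EpCAM-positive control cells, and 31.7 and 32 CPM in culture. Only EpCAM-negative and EpCAM-positive depleted cells failed to overlap for Id1 among the 4 tumour contrasts of fraction or treatment.

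Id2, which is also induced outside the BMP pathway, had 19.9, 28.3 and 37.7 CPM in EpCAM-negative depleted cells and 22.3, 34.6 and 44.6 CPM in EpCAM-positive depleted cells (lowest, median and highest). The control tumour cells had 99.5, 138 and 176 CPM in the EpCAM-negative fraction and 151, 200 and 281 CPM in the EpCAM-positive fraction, and the cultures had 17.1 and 18.1 CPM. All control tumour libraries were above all depleted ones, and all tumour libraries were above the cultures. Id3 spread more within groups, at 14.3 to 80.5 CPM in EpCAM-negative depleted, 9.11 to 38.4 in EpCAM-positive depleted, 13.4 to 87.1 in EpCAM-negative control and 11.9 to 29.3 in EpCAM-positive control cells, with 59.4 and 52.0 CPM in culture.

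The balance between the Id genes within a library, as a ratio of counts per kb, separated the treatments. The median of Id1 over Id2 was 6.25 in EpCAM-negative depleted cells (range 3.31 to 6.63) and 2.25 in EpCAM-positive depleted cells (1.47 to 2.76). It was 0.749 in EpCAM-negative control cells (0.438 to 1.08), 0.348 in EpCAM-positive control cells (0.236 to 0.591) and 3.81 in culture. The depleted ranges did not overlap the control ranges or each other. Id3 over Id2 had medians of 2.39, 0.895, 0.528 and 0.148 in the same 4 tumour groups and 4.32 in culture, with overlap between EpCAM-negative depleted and control cells.

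**Figure D3:**
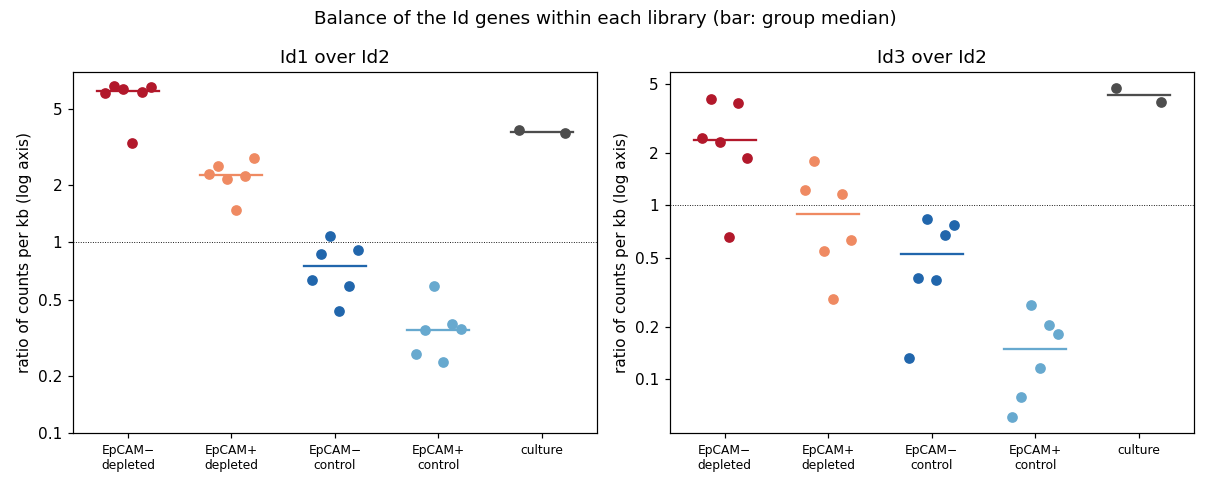
Ratio of counts per kb of Id1 over Id2 (left) and Id3 over Id2 (right) in each library, on logarithmic axes, with the group median as a bar. Id1 exceeds Id2 per kb in all 12 depleted libraries and both cultures, where the lowest ratio is 1.47, and all 6 EpCAM-positive control libraries lie at or below 0.591.

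Promoters were available in the RefSeq table (GRCm38.p6) for 6 of the 10 members, not for Bmp2, Bmp7, Sostdc1 and Id1. The window ran from 250 bases before to 50 bases after the transcription start, and was searched on both strands for 3 motifs known from Smad binding, GTCTAGAC, GGCGCC and CAGAC. They occur in 0.213%, 11.9% and 49.6% of the 32851 promoters of the table. The promoters of Smad6, Id2 and Id3 are shown because they are the target genes of the members with an entry. Each holds a different one of the motifs, while Smad6 and Id2 changed in the same direction in the depleted-over-control contrasts below and Id3 was not called. Among the other promoters searched, that of Grem1, which rose in those contrasts, holds GGCGCC and CAGAC. Bmpr1a holds GGCGCC, and Bmp4 holds none of the motifs. A link between motifs and changes was not tested. Capitals mark the motif matches, of which the second in Id3 is CAGAC on the opposite strand. GTCTAGAC begins 4 bases before the start of Smad6 (chr9:64022056-64022309, minus strand, of which the last 4 bases lie after the start), GGCGCC 231 bases before the start of Id2 (chr12:25096093-25096342, minus strand), and CAGAC 167 and 68 bases before the start of Id3 (chr4:136143572-136143821, plus strand). None of the printed matches overlaps another motif of the 3, and a match describes the letters only.
Smad6: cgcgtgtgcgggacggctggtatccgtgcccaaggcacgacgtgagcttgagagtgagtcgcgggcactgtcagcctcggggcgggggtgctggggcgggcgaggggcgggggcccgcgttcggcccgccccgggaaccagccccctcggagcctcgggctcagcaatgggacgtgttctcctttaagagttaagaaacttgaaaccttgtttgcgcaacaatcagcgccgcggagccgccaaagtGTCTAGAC
Id2: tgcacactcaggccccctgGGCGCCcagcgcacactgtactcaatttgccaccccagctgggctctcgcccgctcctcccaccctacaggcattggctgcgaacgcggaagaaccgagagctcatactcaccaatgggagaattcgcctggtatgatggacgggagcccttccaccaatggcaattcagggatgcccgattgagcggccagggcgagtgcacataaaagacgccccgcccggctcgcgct
Id3: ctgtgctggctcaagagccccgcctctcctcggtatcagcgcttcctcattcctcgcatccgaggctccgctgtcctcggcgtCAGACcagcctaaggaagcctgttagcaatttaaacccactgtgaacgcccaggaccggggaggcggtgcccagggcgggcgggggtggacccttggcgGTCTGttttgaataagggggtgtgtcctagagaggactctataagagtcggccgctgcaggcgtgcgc

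The first comparison asked how tumour cells of CD4- and CD8-depleted mice differed from those of IgG control mice. Bmp7 and Grem1 rose and Bmp2, Smad6 and Id2 fell in depleted tumours, in both EpCAM fractions. Id1 rose in the EpCAM-negative fraction, and Bmp4 fell there. In the EpCAM-positive fraction Sostdc1 fell to 0 counts and Bmpr1a fell slightly. In edgeR's quasi-likelihood test with Benjamini-Hochberg adjustment over all features, 3 of the 10 members rose among EpCAM-negative cells, where 21.9% of all tested features rose, and 4 fell, where 23.2% of features fell. Among EpCAM-positive cells 2 rose, against 17.6% of features, and 5 fell, against 22.4%. The shares of members that rose are near those of all features, and those of members that fell are higher, in a list of 10. The list was chosen with earlier results of these data known, so the shares are no independent test. The median log2 change of the members was -0.16 in EpCAM-negative cells (9 members, without Sostdc1) and -0.66 in EpCAM-positive cells (10 members, with Sostdc1 at its bound), beside 0.03 and -0.02 over all features.

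Bmp7 rose by 9.41 ± 0.38 on the log2 scale in EpCAM-negative depleted over control cells (681-fold, adjusted p = 1.04e-15) and by 5.66 ± 0.30 in EpCAM-positive cells (50.6-fold, adjusted p = 1.72e-13; log2 fold change ± SE, n = 6 against 6 libraries, edgeR). Without EpCAM-negative control library 2, which held the most Bmp7 of its group, the change in EpCAM-negative cells was 10.26. Grem1 rose by 3.81 ± 0.55 in the EpCAM-negative and by 4.10 ± 0.57 in the EpCAM-positive fraction (adjusted p = 2.56e-06 and 1.90e-06 by edgeR). Without EpCAM-positive control library 1 the change of Grem1 in EpCAM-positive cells was 4.81.

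Among the genes that fell, Bmp2 changed by -4.09 ± 0.66 in EpCAM-negative cells (adjusted p = 1.39e-05) and by -5.96 ± 0.76 in EpCAM-positive cells (adjusted p = 5.52e-07, edgeR). The EpCAM-positive value rests in part on depleted library 3, which held 16 of the 18 Bmp2 counts of its group, and was -8.47 without it. Smad6 changed by -2.52 ± 0.32 and Id2 by -2.33 ± 0.20 in EpCAM-negative cells, and by -1.51 ± 0.29 and -2.65 ± 0.20 in EpCAM-positive cells, with adjusted p between 1.06e-10 and 0.000172 (edgeR). Sostdc1 was at least 72.4-fold lower in EpCAM-positive depleted cells, taking 3 counts per library for those at 0.

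The remaining calls were smaller. Id1 rose by 0.68 ± 0.18 in EpCAM-negative cells (adjusted p = 0.00337) and changed by 0.03 ± 0.18 in EpCAM-positive cells (adjusted p = 0.916), and the difference between these changes, 0.65 ± 0.26, did not pass the threshold (adjusted p = 0.0845, edgeR). Bmp4 fell by 2.52 ± 0.84 in EpCAM-negative cells (adjusted p = 0.0155), from totals of few counts. In EpCAM-positive cells it changed by -1.06 ± 0.79 (adjusted p = 0.305). Bmpr1a changed by -0.26 ± 0.10 in EpCAM-positive cells (adjusted p = 0.0464), a call that was lost when any of 9 of the 12 libraries was left out, and by -0.16 ± 0.10 in EpCAM-negative cells (adjusted p = 0.23, edgeR). Id3 changed by -0.07 ± 0.39 in the EpCAM-negative and by 0.0019 ± 0.40 in the EpCAM-positive fraction (adjusted p = 0.91 and 0.998, edgeR).

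**Figure D4:**
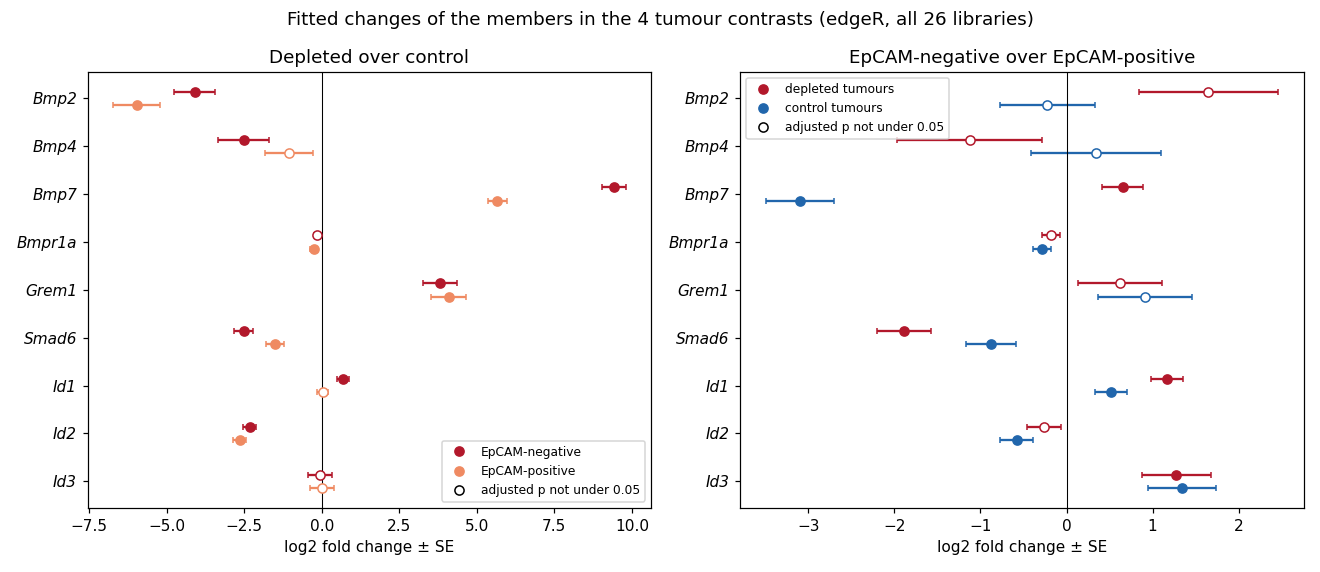
Log2 fold change ± SE of 9 members (Sostdc1 is left out, being at 0 counts in 2 tumour groups), for depleted over control tumours in each fraction (left) and EpCAM-negative over EpCAM-positive cells in each treatment (right), from edgeR on all 26 libraries. Filled points had an adjusted p under 0.05. Bmp7 lies at 9.41 and 5.66 on the left, and at 0.65 in depleted and -3.10 in control tumours on the right.

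Marker genes of other cells were read in depleted over control tumours too. Over all features, 21.9% rose and 23.2% fell in EpCAM-negative cells, and 17.6% rose and 22.4% fell in EpCAM-positive cells. In EpCAM-negative depleted cells 9 of 12 macrophage genes were higher and 0 were lower, with sums of 139 to 343 CPM against 60.0 to 79.3 CPM in EpCAM-negative control cells and none of the 12 at 0 in a tumour group. In EpCAM-positive cells, 6 were higher and 1 lower, with sums of 173 to 256 CPM in depleted and 122 to 284 CPM in control tumours. The median log2 change of the 12 was 4.11 in the EpCAM-negative and 1.48 in the EpCAM-positive fraction, and the cultures summed to 69.9 and 71.5 CPM with C1qa, Mrc1 and Fcgr1 at 0. Ptprc moved the same way and Eng did not, as given above. Of 5 tested neutrophil genes 3 rose in EpCAM-negative cells (sums of 10.7 to 21.2 CPM in depleted and 1.77 to 4.92 CPM in control tumours) and 2 in EpCAM-positive cells (8.77 to 16.1 CPM in depleted and 2.09 to 4.48 CPM in control tumours), and the cultures summed to 30.2 and 31.9 CPM. Of 12 endothelial genes 3 rose in EpCAM-negative cells, near the share of all features. Their sums there were 10.2 to 39.8 CPM in depleted and 2.09 to 5.59 CPM in control tumours. In EpCAM-positive cells 1 rose and 4 fell, with a median log2 change of -2.30. The sums there were nonetheless higher in depleted tumours, at 31.3 to 61.8 CPM against 5.65 to 25.4 CPM in control tumours. Fibroblast genes, many of which mesenchymal tumour cells also express, went the other way: of 10 tested genes 7 fell in EpCAM-negative cells (sums of 169 to 253 CPM in depleted and 1294 to 5055 CPM in control tumours) and 5 fell in EpCAM-positive cells (79.2 to 232 CPM in depleted and 1230 to 3242 CPM in control tumours), with Thy1 at 0 in EpCAM-negative control cells. T and NK cell genes summed to at most 2.22 CPM in any tumour library. Of 10 immediate-early genes, 4 were lower in EpCAM-negative depleted and 10 in EpCAM-positive depleted cells. Of 10 mitotic genes 2 fell in EpCAM-negative cells, near the share of all features. In EpCAM-positive cells 8 rose, with sums of 493 to 609 CPM in depleted and 164 to 404 CPM in control tumours. The part of these genes' source cells in the changes of the members was not tested.

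The second comparison set EpCAM-negative against EpCAM-positive cells within each treatment, the contrast between mesenchymal-like and epithelial-like tumour cells of the study design. Smad6 was lower and Id1 and Id3 were higher in EpCAM-negative cells in both treatments. Bmp7 was higher in the EpCAM-negative fraction of depleted tumours and lower in that of control tumours. Sostdc1, Id2 and Bmpr1a were lower in EpCAM-negative cells of control tumours. By edgeR, 3 members were higher in depleted tumours, beside 14.2% of all features, and 1 was lower, beside 14.3%. In control tumours 2 were higher, beside 13.3%, and 5 lower, beside 14.5%. The median over the members was 0.62 in depleted (9 members, without Sostdc1) and -0.25 in control tumours (10 members), and 0.01 and -0.01 over all features.

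In depleted tumours Smad6 changed by -1.89 ± 0.31 on the log2 scale (EpCAM-negative over EpCAM-positive, adjusted p = 3.65e-05) and Id1 by 1.17 ± 0.19 (adjusted p = 1.96e-05, edgeR), each with no overlap of the 6 against 6 libraries. Id3 changed by 1.28 ± 0.40 (adjusted p = 0.0169), and the call was lost without EpCAM-negative library 2 (adjusted p = 0.0527, edgeR). Bmp7 was higher by 0.65 ± 0.24 (adjusted p = 0.0444), with overlapping libraries, and this call was lost when any of 10 of the 12 libraries was left out and with DESeq2 (adjusted p = 0.177, with a range of 0.00319 to 0.177 over all alternatives). Bmp2, at 1.65 ± 0.81, was not called with all libraries (adjusted p = 0.139), and was 4.14 without EpCAM-positive library 3 (adjusted p = 0.00281, edgeR). Grem1, at 0.62 ± 0.48, was not called with all 26 libraries in the model (adjusted p = 0.382) and was with only the groups compared (adjusted p = 0.00306, edgeR). Bmp4 changed by -1.13 ± 0.84, Id2 by -0.26 ± 0.20 and Bmpr1a by -0.18 ± 0.10, and none of them was called (adjusted p of 0.23 to 0.367, edgeR).

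In control tumours Bmp7 was lower in EpCAM-negative cells by a log2 change of -3.10 ± 0.39 (adjusted p = 1.04e-06, edgeR), and by -3.96 without its EpCAM-negative library 2. Sostdc1 was 2030-fold lower there, with a 95% counting interval of 364 to 80200, from 1 count in all EpCAM-negative libraries and 2033 in the EpCAM-positive ones. Smad6 changed by -0.88 ± 0.29, Id2 by -0.58 ± 0.19 and Id3 by 1.34 ± 0.40 (adjusted p = 0.023, 0.0238 and 0.0122, edgeR). The Smad6 call was lost without EpCAM-positive library 5 (adjusted p = 0.0558), and that of Id2 without EpCAM-negative library 3 or EpCAM-positive library 1 or 4 (adjusted p = 0.0619 to 0.0683). Id1 changed by 0.52 ± 0.18 (adjusted p = 0.036) and Bmpr1a by -0.28 ± 0.10 (adjusted p = 0.0443), calls that were lost when any of 9 and of 6 of the 12 libraries was left out. Grem1, at 0.91 ± 0.54, was not called (adjusted p = 0.232), and was 1.62 without EpCAM-positive library 1 (adjusted p = 0.0277, edgeR). Bmp2 changed by -0.22 ± 0.55 and Bmp4 by 0.34 ± 0.75, and neither was called (adjusted p = 0.818 and 0.793, edgeR).

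The difference between the EpCAM contrasts, depleted minus control, was tested directly. It passed the threshold for 1 member, Bmp7, at 3.75 ± 0.47 on the log2 scale (adjusted p = 2.46e-06, edgeR), where 9.33% of all features had a higher and 8.69% a lower difference. Without EpCAM-negative control library 2 it was 4.6. Smad6, at -1.01 ± 0.42, did not pass with all 26 libraries in the model (adjusted p = 0.103) and did with only the groups compared (adjusted p = 0.00761, edgeR). The difference for Bmp2 was 1.87 ± 0.98 (adjusted p = 0.205) with all libraries and 4.38 without EpCAM-positive depleted library 3 (adjusted p = 0.00786, edgeR). Bmp4, Bmpr1a, Grem1, Id1, Id2 and Id3 had differences with adjusted p between 0.0845 and 0.966.

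Other-cell and process genes were read in the same contrasts. Over all features, 14.2% were higher and 14.3% lower in the EpCAM-negative fraction of depleted tumours. The shares were 13.3% and 14.5% in control tumours. In control tumours 8 of 12 macrophage genes were lower and 1 was higher in the EpCAM-negative fraction (sums of 60.0 to 79.3 CPM, against 122 to 284 CPM in the EpCAM-positive fraction), and all 10 mitotic genes were higher. In depleted tumours 0 of the macrophage genes were higher and 1 was lower, and 8 of 10 immediate-early genes were higher, with sums of 8510 to 14656 CPM in EpCAM-negative depleted and 6049 to 7931 CPM in EpCAM-positive depleted cells. Endothelial genes, in whose source cells Smad6 and Id1 are also known to be active, were read as sums and as calls. They summed to 10.2 to 39.8 CPM in EpCAM-negative depleted and 31.3 to 61.8 CPM in EpCAM-positive depleted cells. In control tumours the sums were 2.09 to 5.59 CPM in EpCAM-negative and 5.65 to 25.4 CPM in EpCAM-positive cells. By calls, 1 of the 12 was higher and 0 were lower in the EpCAM-negative fraction of depleted tumours (median log2 change 0.61). In control tumours 0 were higher and 6 lower (median -2.68). Of these 12, Sox18 was at 0 in EpCAM-positive depleted and Erg in EpCAM-negative control cells. Pericyte and smooth muscle genes summed to 2.71 to 16.3 CPM in EpCAM-negative depleted and 54.0 to 118 CPM in EpCAM-positive depleted cells, with Rgs5 at 0 in the EpCAM-positive cells. Of the 6 tested, 1 was higher and 1 lower in the EpCAM-negative fraction of depleted tumours, with a median log2 change of 1.69. The part of all these lists in the members' differences was not tested.

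The third comparison set each tumour group against the cultured line, and its 4 contrasts share the 2 culture libraries. Bmp7, Bmp2 and Id2 rose in 3 groups each, Smad6 and Bmpr1a in all 4, and Id1 and Sostdc1 in 1 each. Grem1 fell in both control tumour groups, and Id3 fell in both EpCAM-positive groups, and Bmp4 in EpCAM-negative depleted cells. By edgeR, 5 members rose in EpCAM-negative depleted cells, beside 21.8% of all features, and 1 fell, beside 20.6%. In EpCAM-positive depleted cells 4 rose, beside 20.9%, and 1 fell, beside 18.6%. In EpCAM-negative control cells 4 rose, beside 26.5%, and 1 fell, beside 24.2%. In EpCAM-positive control cells 6 rose, beside 27.8%, and 2 fell, beside 22.4%. The median log2 change of the members was 0.68 (9 members), 0.38 (8), 0.61 (9) and 1.65 (10) in EpCAM-negative depleted, EpCAM-positive depleted, EpCAM-negative control and EpCAM-positive control cells, and that of all features 0.09, 0.11, 0.08 and 0.17. Members with at most 3 counts per library on average in both groups were left out. Other-cell and process genes were read over culture too, in the same order of groups. Of 10 immediate-early genes 10, 9, 10 and 10 rose and 0 fell. Of 10 mitotic genes 10, 9, 10 and 10 fell and 0 rose. Of 12 macrophage genes 10, 10, 7 and 10 rose, and 1 fell in each group. The part of these lists in the members' changes over culture was not tested.

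Over culture, Bmp7 was higher by 8.71 ± 0.61 in EpCAM-negative depleted, 8.06 ± 0.60 in EpCAM-positive depleted and 2.40 ± 0.55 in EpCAM-positive control cells (adjusted p of at most 0.00067, edgeR). In EpCAM-negative control cells it changed by -0.70 ± 0.67 (adjusted p = 0.401), and by -1.60 without library 2 of that group (adjusted p = 0.037). Grem1 changed by -3.31 ± 0.63 in EpCAM-negative control and by -4.22 ± 0.65 in EpCAM-positive control cells (adjusted p = 8.87e-05 and 5.22e-06), the second of which was -4.93 without EpCAM-positive control library 1. In depleted cells Grem1 changed by 0.50 ± 0.70 in the EpCAM-negative and by -0.12 ± 0.67 in the EpCAM-positive fraction and was not called.

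Bmp2, with 1 count in the 2 cultures, was 518-fold higher in EpCAM-negative control cells (95% counting interval 92.9 to 20500) and 645-fold higher in EpCAM-positive control cells (116 to 25500). In EpCAM-negative depleted cells the ratio was 30.5 (5.25 to 1230), and that call was lost without either culture library (adjusted p = 0.161 and 0.104, edgeR). Sostdc1 was at least 123-fold higher in EpCAM-positive control cells than in culture. Id2 rose by 3.01 ± 0.33 in EpCAM-negative control, 3.59 ± 0.34 in EpCAM-positive control and 0.94 ± 0.29 in EpCAM-positive depleted cells, the last of which was lost without either culture library (adjusted p = 0.104 and 0.0864).

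Smad6 was higher than in culture by 1.34 ± 0.50, 3.22 ± 0.53, 3.85 ± 0.54 and 4.73 ± 0.57 in EpCAM-negative depleted, EpCAM-positive depleted, EpCAM-negative control and EpCAM-positive control cells. The size rests on the cultures, which differ in Smad6: without culture library 1 the values were 4.6, 6.49, 7.13 and 8.00, and without culture library 2 they were 0.32, 2.21, 2.85 and 3.74, of which 0.32 was not called. In EpCAM-negative depleted cells the Smad6 call (adjusted p = 0.0322) was also lost without library 1, 2 or 3 of that group (adjusted p = 0.052, 0.0533 and 0.0566, edgeR). With only the groups compared it was lost too (adjusted p = 0.219, edgeR). Bmpr1a was higher than in culture by 0.47 ± 0.15, 0.64 ± 0.15, 0.62 ± 0.15 and 0.91 ± 0.16 in the same 4 groups (adjusted p of at most 0.0152, edgeR), of which the 0.47 in EpCAM-negative depleted cells was not called without either culture library (adjusted p = 0.145 and 0.0989). Id1 rose in EpCAM-negative depleted cells by 1.29 ± 0.28 (adjusted p = 0.000494). Id3 fell by 1.40 ± 0.52 in EpCAM-positive depleted and in EpCAM-positive control cells (adjusted p = 0.0336 and 0.0263), and both calls were lost without either culture library, at adjusted p between 0.0771 and 0.172. Bmp4 fell in EpCAM-negative depleted cells by 2.59 ± 1.02 (adjusted p = 0.0422), likewise lost without either culture library. That call was lost without library 1, 2 or 3 of its tumour group too (adjusted p = 0.0605, 0.0587 and 0.0678, edgeR). The members not named in a contrast with culture were not called there: Id1 in 3 groups, Bmp4 in 3, Id3 in both EpCAM-negative groups, Id2 in EpCAM-negative depleted cells (0.68 ± 0.29, adjusted p = 0.058, edgeR), Bmp2 in EpCAM-positive depleted cells, and Sostdc1, with at most 1 count, in 3 groups. In the 6 alternatives other than leaving out a library, Id2 in EpCAM-negative depleted cells was called in 4 (adjusted p of 0.0303 to 0.106, edgeR or DESeq2). Id1 in EpCAM-negative control cells (0.61 ± 0.27, adjusted p = 0.0605, edgeR) was called in 2 of these 6 (adjusted p of 0.0102 to 0.0875).

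Other genes of the pathway were taken as a list of 61 ligands, receptors, modulators, Smads and regulators, targets and Id partners, of which 46 were tested. In EpCAM-negative depleted over control cells 12 rose and 22 fell, with a median log2 change of -0.37 with genes near 0 counts at their bounds, against 0.03 over all features, of which 21.9% rose and 23.2% fell. In EpCAM-positive cells 6 rose and 21 fell, with a median of -0.34 against -0.02, beside 17.6% of features that rose and 22.4% that fell. Hey1, a transcriptional repressor that BMP and Notch can induce, changed by -7.23 ± 0.53 in the EpCAM-negative and by -4.31 ± 0.42 in the EpCAM-positive fraction. It averaged 0.747 ± 0.450 CPM in EpCAM-negative depleted and 12.4 ± 3.79 in EpCAM-positive depleted cells, against 109 ± 65.6 in EpCAM-negative control and 247 ± 121 in EpCAM-positive control cells (SD, n = 6 each). Dlx5, a homeobox target known from bone, changed by -3.49 ± 0.41 in the EpCAM-negative and by -4.25 ± 0.40 in the EpCAM-positive fraction. Of 10 tested targets and Id partners 3 rose and 6 fell in EpCAM-negative cells, and 1 rose and 6 fell in EpCAM-positive cells. Msx2, another homeobox target, had 209 counts in EpCAM-negative depleted and 2 in EpCAM-negative control cells. It was thus 160-fold higher there in depleted tumours, with a 95% counting interval of 43.7 to 1330.

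The E protein Tcf4, a partner of Id proteins, changed by -1.03 ± 0.10 in EpCAM-negative depleted and by -0.99 ± 0.11 in EpCAM-positive depleted cells. Rgma, a BMP co-receptor, fell by 2.06 ± 0.23 in EpCAM-negative cells. Bmp1, which despite its name is a protease that cleaves procollagen and chordin, rose by 1.21 ± 0.10 in EpCAM-positive depleted over control cells. Hey1, Dlx5, Tcf4, Rgma and Bmp1 each had an adjusted p of at most 9.27e-08 in the contrasts named (edgeR). Of 10 tested signal transducers and their regulators 6 rose and 2 fell in EpCAM-negative cells, and 4 rose and 1 fell in EpCAM-positive cells. Of 5 tested ligands 4 fell in either fraction. Over all features, 21.9% rose and 23.2% fell in EpCAM-negative cells, and 17.6% rose and 22.4% fell in EpCAM-positive cells. Several of these ligands had few counts. EpCAM-negative depleted and control cells held 2 and 108 counts of Bmp8a, 1 and 27 of Bmp15, and 1 and 61 of Gdf5.

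Between the fractions, the EpCAM-negative fraction of depleted tumours had 16 of the 46 genes higher and 9 lower (median 0.28 at bounds, 0.01 over all features), and 11 were higher and 11 lower in control tumours (median 0.06, and -0.01 over all features). The shares of all features that were higher and lower were 14.2% and 14.3% in depleted and 13.3% and 14.5% in control tumours. Bmper, a secreted BMP modulator, was higher in EpCAM-negative depleted cells by 3.74 ± 0.33. Bmp1 was lower there by -0.84 ± 0.10 and higher in EpCAM-negative control cells by 0.74 ± 0.10, a difference of -1.58 ± 0.15 (adjusted p = 2.57e-08, edgeR). Acvrl1, a type I receptor best known from endothelium, and Hey1 were lower in EpCAM-negative depleted cells by -1.84 ± 0.23 and -4.10 ± 0.52. Msx2, a homeobox target of BMP, had 2 counts in EpCAM-negative control and 498 in EpCAM-positive control cells, a ratio of 249 with a counting interval of 68.5 to 2060. Tcf4 and the co-receptor Rgmb were higher in EpCAM-negative control cells by 0.75 ± 0.10 and 1.15 ± 0.18. The contrasts differed between treatments for 13 of the 46 genes, 8 with a higher and 5 with a lower difference, beside 9.33% and 8.69% of all features, with the smallest p for Bmp1, the modulator Twsg1 (-0.60 ± 0.09), the osteoblast factor Runx2 (0.75 ± 0.14) and the transducer Smad1 (0.94 ± 0.17).

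Over culture, 19 of the 46 rose and 5 fell in EpCAM-negative depleted, 17 rose and 7 fell in EpCAM-positive depleted, 29 rose and 6 fell in EpCAM-negative control and 30 rose and 4 fell in EpCAM-positive control cells. In the same order, 21.8%, 20.9%, 26.5% and 27.8% of all features rose and 20.6%, 18.6%, 24.2% and 22.4% fell. The median log2 change of the list at its bounds was 0.86, 0.49, 1.36 and 0.95 in these groups, and that of all features 0.09, 0.11, 0.08 and 0.17. The BMP-binding transmembrane protein Crim1 averaged 34.3 ± 4.74, 21.3 ± 5.27, 46.5 ± 6.11 and 40.8 ± 4.61 CPM in these 4 groups and 138 ± 0.539 CPM in culture. Acvr1, another type I receptor, rose by 1.25 to 1.79 on the log2 scale over the 4 groups, and Twsg1 by 0.88 to 1.39. Msx2 averaged 45.6 ± 0.132 CPM in culture and at most 5.49 ± 1.38 CPM in a tumour group. Nog, Sost, Bmp5, Bmp6 and 11 further genes of the list had too few counts to be tested.

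**Figure D5:**
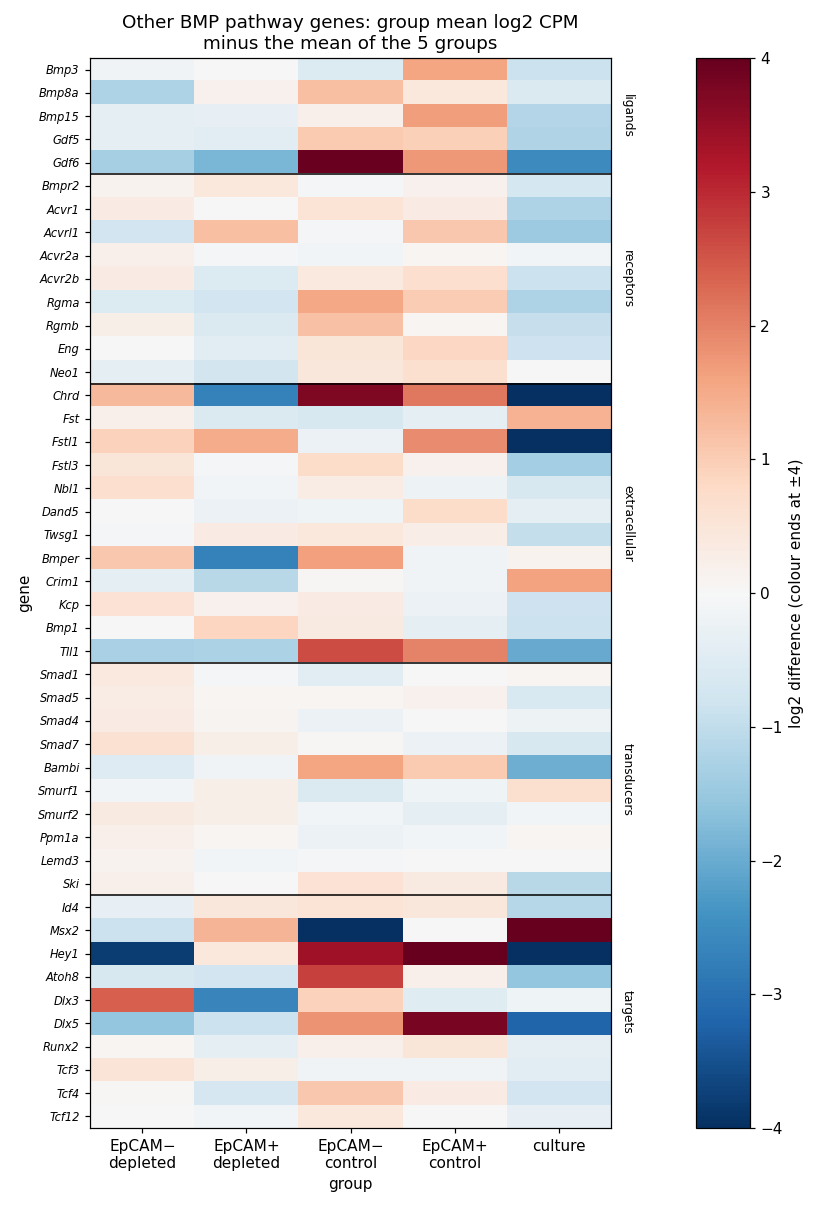
Group mean log2 CPM of the 46 tested pathway genes minus the mean of the 5 groups, in rows ordered by role, with colours ending at ±4 on the log2 scale. Hey1 and Dlx5 are highest in the control tumour groups, Msx2 and Crim1 in culture, and most Smads vary little.

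The tested genes whose 5 group means came closest to those of each member were found by the root mean square difference of centred log2 CPM, over 5 groups and 9908 genes with at least 10 CPM in a group. Bmp7 had no close match: its nearest gene, Il1b, differed by 1.70, ahead of Mpeg1 at 1.76 and Lyz2, one of the macrophage markers, at 1.79. Grem1 was nearest to Fam78b at 0.541, Smad6 to Emb at 0.370 and Sostdc1 to Pigr at 0.275. Bmp2 was nearest to Dclk1 at 0.272, and Bmp4 to Stard5 at 0.203. Id2 was closest to the interferon-inducible GTPase genes Irgm2 at 0.170 and Igtp at 0.236, followed by Ypel2 at 0.259. Id1 was closest to Vcl at 0.107 and Id3 to Itga7 at 0.0705. Bmpr1a, with the flattest profile, differed from Acaa1a by 0.0354.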

How the data were processed

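Full-length cDNA of sorted tumour cells and cultured E-A14 cells was amplified from low input and sequenced, per the labels' protocols, with a kit that marks neither strand nor single molecules. The authors deposited raw read counts per gene; the submitters' processing notes name the aligner STAR, without a version, and the build mm9. Their second, log2-like table, made with DESeq2 1.22.2 per those notes, was not used. Which counting program, annotation and strand setting they used is not known from the labels. Of the members, Bmp4 and Bmpr1a share exon bases with another annotated gene.

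Groups came from the sample titles. The counts were normalized (TMM) and filtered by edgeR 4.0.16 under R 4.3.3, which kept 16637 of 47730 features. Its quasi-likelihood model took all 26 libraries, each group having its own coefficient, and gave 9 contrasts, called at a Benjamini-Hochberg adjusted p under 0.05. CPM use the filtered library size and TMM factor, and lengths are GENCODE M21 exon unions. Where a group held at most 3 counts, the ratio of summed counts, each over the summed library sizes of its group, was given with a 95% counting interval or, at 0, as a bound against 3 counts per library; intervals cover counting error only. Only the contrast of EpCAM fractions in depleted tumours was tried on simulated counts, with the same spread for all genes. Changes were set in genes with many counts, so genes with few counts and the contrasts with culture were not covered.

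The members and gene lists were chosen with earlier results of these data known. All 10 members are named in every comparison, and of the other pathway genes up to 4 with the smallest p among those called. Msx2 in EpCAM-negative depleted over control cells was added as a target that rose. Alternatives were RLE and upper-quartile factors, DESeq2 1.42.0, no low-count filter, only the groups compared, a replicate block, and leaving out each library. Promoter sequences come from RefSeq (GRCm38.p6), matched by symbol; no other coordinates were used, since the counts are on mm9.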

Additional observations from a re-analysis of the deposited data

Results flagged for a closer look

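In 38 groups of 6 libraries screened for a single library far from the rest, 3 were found. The cut flags about 1 in 20 groups of normally distributed values. That rate does not hold for counts near 0, where a single count in 1 library is always flagged. Bmp2 was at 0.620 CPM in EpCAM-positive depleted library 3, while the other 5 libraries of that group had at most 0.0536 CPM. Bmp7 was at 0.974 CPM in EpCAM-negative control library 2, against at most 0.354 CPM in the other 5. Sostdc1 was at 0.0308 CPM, a single count, in EpCAM-negative control library 1, and at 0 in the other 5.

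The EpCAM contrast of Bmp7 differed between treatments by 3.75 on the log2 scale (adjusted p = 2.46e-06 for the difference, edgeR). EpCAM-negative cells were above EpCAM-positive cells by 0.65 in depleted tumours and below them by a log2 change of -3.10 in control tumours.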

How the results depend on the processing

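Over all alternatives, summary counts stayed within 1.5 times their value in 303 cases and moved in 13, and single members kept direction and call in 1324 cases, lost the call in 74, gained it in 20 and changed sign in 38. The number of members whose EpCAM contrast differed between treatments, 1, was 2 with DESeq2, 2 with only the groups compared and 3 with the replicate block, and 1 to 2 with a library left out. With DESeq2 the added member was Sostdc1. It is at 0 counts in both depleted groups, so that its difference cannot be estimated. Leaving out 1 library gave 2 to 4 members called for EpCAM-negative against EpCAM-positive depleted cells, 4 to 7 for control cells, 2 to 7 for EpCAM-negative depleted cells against culture and 3 to 5 for EpCAM-positive depleted cells against culture. Values near 0 that changed sign were Id3 in EpCAM-negative depleted over control cells, 0.00027 with upper-quartile factors and -0.26 to 0.13 with a library left out, and in EpCAM-positive cells Id1, -0.0012 without the filter and -0.0717 to 0.11 with a library left out, and Id3, -0.0305 without the filter and -0.26 to 0.16 with a library left out. With a library left out the range was -0.43 to 0.18 for Bmp2 between control fractions, -1.0 to 0.26 for the difference of Grem1 and -0.27 to 0.19 for that of Id3. Against culture it was -0.35 to 0.023 for Id3 in EpCAM-negative depleted, -0.00792 to 0.19 for Id1 in EpCAM-positive depleted, -0.37 to 0.26 for Bmp4 and -0.25 to 0.0917 for Id3 in EpCAM-negative control, and -0.0203 to 0.15 for Id1 in EpCAM-positive control cells. The causes were not tested.

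Both fractions were sorted from every tumour, so that the fractions are paired by design, but the labels do not say that a shared number marks a mouse. Deviations of same-numbered libraries correlated at 0.0297 to 0.0585 in depleted and 0.0558 to 0.168 in control tumours, and 7 of 12 and 11 of 12 libraries correlated best with their own number, which is a hint from the data on what the numbers mean. With the replicate block, Smad6 (-1.02, adjusted p = 0.00193) and Id1 (0.66, adjusted p = 0.0125) also differed in their EpCAM contrast between treatments, and Grem1 was called between control fractions (1.12, adjusted p = 0.0448, edgeR). The block turned the difference of Id3 to 0.0483. For the contrasts between treatments and with culture, the block joined libraries by number alone, across mice of both treatments and the cultures. It is thus no pairing by tumour. Between treatments, 2 of 12 EpCAM-negative and 0 of 12 EpCAM-positive libraries correlated best with their own number. With that block Id3 was -0.0737 in EpCAM-positive depleted over control cells. Over culture, Grem1 was 0.19 in EpCAM-positive depleted cells and Id3 was 0.0020 in EpCAM-negative control cells. Precision was lowest where counts were few: Bmp4, with 0 to 67 counts in a tumour library, had standard errors of 0.75 to 0.84 in the contrasts between tumour groups, against 0.10 for Bmpr1a with 1482 to 4938 counts.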

Other observations

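The ligand Gdf6 and its surroundings were read after their values were seen. Gdf6 averaged 0.141 ± 0.256 CPM in EpCAM-negative depleted and 0.0330 ± 0.0809 CPM in EpCAM-positive depleted cells, against 10.7 ± 6.76 CPM in EpCAM-negative control and 1.6 ± 1.0 CPM in EpCAM-positive control cells (SD, n = 6 each). Its log2 change in depleted over control tumours was -6.11 ± 0.95 for the EpCAM-negative and -5.43 ± 1.13 for the EpCAM-positive fraction (adjusted p = 7.33e-06 and 0.000362, edgeR). Chordin (Chrd), a secreted BMP antagonist, averaged 3.19 ± 1.70 and 0.176 ± 0.255 CPM in the EpCAM-negative and EpCAM-positive fractions of depleted tumours, against 17.2 ± 6.67 and 7.51 ± 8.61 CPM in those of control tumours. No count of it was found in either culture library. Chrd changed in depleted over control tumours by -2.43 ± 0.57 in the EpCAM-negative and by -5.47 ± 0.75 in the EpCAM-positive fraction (adjusted p = 0.00104 and 2.11e-06, edgeR).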
